A study of Mus musculus with 32 samples.

Results

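Dendritic cells are known by a small set of genes, and 9 of these were followed across 4 lymphoid tissues of mice that carry a CD30 ligand transgene and of their wild type littermates. The genes were Itgax, Flt3, Xcr1, Cd209a, Siglech, Zbtb46, Clec9a, Irf8 and Batf3. They were found by taking every probe set whose gene symbol in the array's probe-to-gene table is one of these names. Of the 9 genes, 8 had a probe set, 12 probe sets in all, out of 18193 distinct gene symbols on 45037 probe sets of the array. Clec9a had no probe set under its symbol in that table and was not analysed here.

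CD30 ligand, encoded by Tnfsf8, is a member of the TNF family that activated lymphocytes display, and CD30, encoded by Tnfrsf8, is its receptor. The transgenic animals were female C57BL/6 mice aged 12 weeks with constitutive overexpression of CD30L in T cells, named CD2-CD30L in the sample titles. The controls were non-transgenic littermates of the same sex, strain and age, called wild type here. From each of the 4 mice per genotype, whole peripheral lymph node, mesenteric lymph node, spleen and thymus were taken, which made 32 arrays of total RNA. The labels do not give the number or clone of the transgenic founder lines.

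Conventional dendritic cells take up antigen, carry it to T cell areas and present it there. The type 1 subset (cDC1) presents antigen from dead cells to CD8 T cells and depends on the transcription factors Irf8 and Batf3, and it displays the chemokine receptor Xcr1 and the dead-cell receptor Clec9a. The type 2 subset (cDC2) presents mainly to CD4 T cells and includes cells with Cd209a, a C-type lectin. Plasmacytoid dendritic cells (pDC), which secrete interferon, display the sialic acid lectin Siglech. Itgax encodes the CD11c integrin found on conventional dendritic cells, Zbtb46 is a transcription factor of conventional dendritic cells and their committed precursors, and Flt3 is the growth factor receptor that drives dendritic cell development. Several of the genes are also used elsewhere: Irf8 in B cells and monocytes, Itgax in some macrophages and NK cells, Flt3 in early lymphoid progenitors, Zbtb46 in endothelium and Siglech in some macrophages.

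The promoters of Itgax, Cd209a, Siglech and Flt3 are shown because each of these surface molecules differed between tissues below. Each sequence is the 250 bases before the annotated start in RefSeq's annotation of build GRCm38.p6, read 5′ to 3′ in the direction of transcription. Capitals mark matches on either strand to the ETS core GGAAGT or to the AP-1 site TGANTCA.
Itgax, chr7:128129300-128129549, plus strand: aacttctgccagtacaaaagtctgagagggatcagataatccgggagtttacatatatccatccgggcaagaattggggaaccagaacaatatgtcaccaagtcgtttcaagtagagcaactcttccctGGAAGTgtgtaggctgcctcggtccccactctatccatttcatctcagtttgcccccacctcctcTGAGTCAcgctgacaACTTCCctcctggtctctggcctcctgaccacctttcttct
Cd209a, chr8:3748985-3749234, minus strand: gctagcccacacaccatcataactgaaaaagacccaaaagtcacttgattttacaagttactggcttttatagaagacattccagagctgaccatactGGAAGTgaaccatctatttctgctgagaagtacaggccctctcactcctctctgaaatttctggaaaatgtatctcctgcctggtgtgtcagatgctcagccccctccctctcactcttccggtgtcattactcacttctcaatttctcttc
Siglech, chr7:55767934-55768183, plus strand: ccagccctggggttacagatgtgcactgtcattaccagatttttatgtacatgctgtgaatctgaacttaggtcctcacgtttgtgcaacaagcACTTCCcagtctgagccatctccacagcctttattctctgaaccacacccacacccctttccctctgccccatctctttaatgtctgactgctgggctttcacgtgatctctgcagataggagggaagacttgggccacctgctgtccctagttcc
Flt3, chr5:147400490-147400739, minus strand: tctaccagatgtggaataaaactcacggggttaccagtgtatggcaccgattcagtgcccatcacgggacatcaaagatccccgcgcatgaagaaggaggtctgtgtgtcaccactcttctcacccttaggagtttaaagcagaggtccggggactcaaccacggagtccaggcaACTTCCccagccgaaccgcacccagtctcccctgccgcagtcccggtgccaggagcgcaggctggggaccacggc
Itgax had 2 ETS core matches and 1 AP-1 match, and these motifs did not overlap each other there. All 9 genes had a promoter entry, Irf8 with 2 windows. The ETS core was found before 6 of the 9 genes (Itgax, Cd209a, Siglech, Flt3, Xcr1 and Batf3) and in 19.7% of all 32851 promoter windows of the same length. The AP-1 site was found before 2 genes, Itgax and Zbtb46, and in 6.75% of all windows. The interferon response core, which is GAAA, any 2 bases and GAAA again, was found before none of the 9 and in 2.98% of all windows. These are letter matches only.

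Intensities below are on the scale log2(intensity + 16) after quantile normalization of all 32 arrays, and are called log2 levels. Differences and their standard errors (SE) come from limma fits that were normalized over their own arrays, so they can depart slightly from the difference of the printed levels. The constant of 16 makes a log2 difference of a dim gene smaller than the change in its signal. Each gene is given by its brightest probe set, and levels of different probe sets are not compared with each other. The tissue labels were checked against known markers. Glycam1, made by the high endothelial vessels of lymph nodes, was at or below 0 intensity on all 4 arrays of each spleen and thymus group and had a mean log2 level of 13.02 to 13.26 in the node groups. Spic, a factor of red pulp macrophages, had its highest group mean log2 levels in spleen (9.40 in transgenic and 9.62 in wild type mice), and Ptcra, a thymocyte gene, had its highest in thymus (9.17 in transgenic and 9.19 in wild type mice). The trimmed mean intensity ran from 106 to 272 over the arrays. Exocrine pancreas transcripts stood out on 3 mesenteric node arrays, transgenic mice 1 and 3 and wild type mouse 2, and skeletal muscle transcripts on 3 peripheral node arrays, transgenic mouse 1 and wild type mice 1 and 3, and on the thymus array of wild type mouse 2. The ratio of 3′ to 5′ Actb signal, a sign of RNA degradation when high, was 2.83 to 3.58 in spleen for mice numbered 1 or 2, whatever their genotype, and 1.65 to 1.85 for mice numbered 3 or 4.

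The transgene's own product gave no sign of genotype at the probe set used. Tnfsf8 differed between transgenic and wild type mice by 0.01 ± 0.09 in peripheral node, -0.06 ± 0.13 in mesenteric node, 0.07 ± 0.10 in spleen and -0.10 ± 0.21 in thymus (log2 difference ± SE, limma). Its receptor gene Tnfrsf8 differed by -0.20 ± 0.16, -0.12 ± 0.11, -0.02 ± 0.17 and 0.04 ± 0.12 in the same order of tissues, and neither gene passed the threshold in any tissue. The sources used here do not say which part of the transcript the transgene holds, so this probe set may not detect it. Genotypes are therefore named by their labels throughout.

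**Figure D1:**
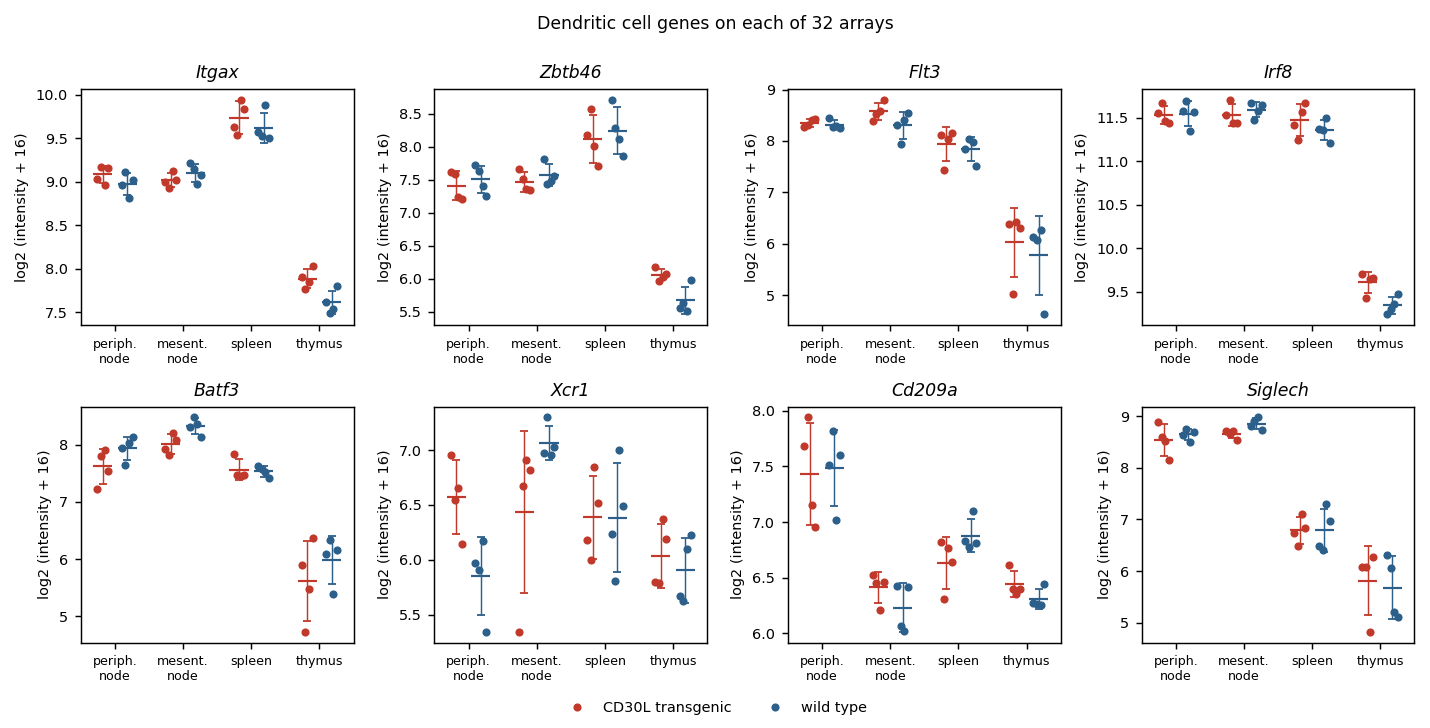
Log2 level of the 8 measured dendritic cell genes on each of the 32 arrays, with tissues on the x axis, transgenic arrays (red) left of wild type arrays (blue), the bar at the mean and whiskers at ± SD (n = 4 mice). Itgax and Zbtb46 are highest in spleen, Siglech is high in both lymph nodes and lower in spleen and thymus, Cd209a is highest in peripheral node, and the vertical axes differ between panels.

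The main pattern lay between tissues. Itgax and Zbtb46 were higher in spleen than in both lymph nodes, Siglech was lower in spleen than in both nodes, and Cd209a was higher in peripheral node than in any other tissue. Itgax, Flt3, Siglech, Zbtb46, Irf8 and Batf3 were lower in thymus than in each other tissue in both genotypes. In bulk tissue, fewer cells of a type and less RNA per cell cannot be told apart. In wild type spleen against peripheral node, 4 of 8 genes passed an adjusted p of 0.05 (limma, with mouse as a block), 2 higher against a background of 17.9% of all probe sets tested and 2 lower against 20.9%. In wild type spleen against mesenteric node 6 of 8 passed, 3 higher against a background of 16.8% and 3 lower against 18.2%. The median log2 difference over the 8 genes was -0.29 and -0.35 in these comparisons, against -0.06 and -0.03 over all probe sets tested. All 8 genes had passed the filter on low values in every comparison.

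Itgax, the CD11c integrin, had log2 levels of 9.57, 9.52, 9.88 and 9.50 in the 4 wild type spleens, against 8.96, 9.11, 8.81 and 9.01 in the peripheral nodes of the same mice and 9.21, 9.14, 8.97 and 9.07 in their mesenteric nodes. Every spleen lay above every node. The log2 difference was 0.65 ± 0.12 (1.56-fold, adjusted p = 0.00126, limma) against peripheral node and 0.52 ± 0.12 (1.43-fold, adjusted p = 0.00568) against mesenteric node. In transgenic mice the same differences were 0.65 ± 0.10 (adjusted p = 0.000643) and 0.72 ± 0.10 (adjusted p = 0.000333). Counted by mouse, Itgax was higher in spleen than in each node in 8 of 8 mice. The mesenteric minus peripheral difference of 0.13 ± 0.12 in wild type mice did not pass (adjusted p = 0.649). In the order of levels, spleen came first and thymus last, and the nodes between them were not separated by the test. Without normalization between arrays, the transgenic spleen minus peripheral node call was lost (0.37, adjusted p = 0.138). The mean difference from peripheral node was 0.49 in mice numbered 1 or 2 and 0.80 in mice numbered 3 or 4.

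Siglech, the lectin of plasmacytoid dendritic cells, was high in both nodes. Its log2 levels were 6.49, 6.41, 7.29 and 6.97 in the wild type spleens, against 8.63, 8.76, 8.51 and 8.68 in peripheral nodes and 8.81, 8.91, 8.98 and 8.73 in mesenteric nodes. The spleens lay well below the nodes with no overlap. The log2 difference was -1.85 ± 0.27 against peripheral node (3.60-fold lower, adjusted p = 0.000245) and -2.06 ± 0.27 against mesenteric node (4.17-fold lower, adjusted p = 0.000136). Transgenic spleens, at 6.73, 6.48, 7.11 and 6.84, were also below the nodes of those mice, with differences of -1.75 ± 0.27 from peripheral node (adjusted p = 0.000804) and -1.87 ± 0.27 from mesenteric node (adjusted p = 0.000525). The spleen minus peripheral node difference averaged -2.19 over the 4 mice numbered 1 or 2, whose spleen RNA had the higher Actb ratio, and -1.41 over the 4 mice numbered 3 or 4. It was below 0 in 8 of 8 mice, and the part of RNA quality in its size was not tested.

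Cd209a, the lectin of a cDC2 fraction and of cells derived from monocytes, set the nodes apart from each other. Its log2 levels were 6.42, 6.06, 6.02 and 6.42 in wild type mesenteric nodes, against 7.51, 7.82, 7.02 and 7.60 in the peripheral nodes. Transgenic mesenteric nodes gave 6.52, 6.46, 6.21 and 6.46, against 7.68, 7.94, 7.16 and 6.95 in the peripheral nodes of those mice. In both genotypes the groups did not overlap, and the mesenteric node was lower in 8 of 8 mice. Between these nodes 1 of 8 genes was higher in wild type mice (background 1.46%) and 1 was lower (background 0.718%), and the lower one was Cd209a, with a log2 difference of -1.25 ± 0.16 (2.38-fold lower, adjusted p = 0.00159). In transgenic mice Cd209a was the only gene of 8 that passed (background 0.755%, higher and lower together), at -1.02 ± 0.18 (adjusted p = 0.0247). That call was lost when any 1 of the 4 transgenic mice was left out (adjusted p 0.0527 to 0.234), and also without the muscle and pancreas arrays (-0.89, adjusted p = 0.585). The wild type call held without each wild type mouse in turn (adjusted p 0.00476 to 0.0376).

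In spleen, Cd209a lay between the nodes. The wild type spleens had log2 levels of 6.83, 6.77, 7.10 and 6.81, with a difference of -0.61 ± 0.16 from peripheral node (adjusted p = 0.00992) and of 0.65 ± 0.16 from mesenteric node (adjusted p = 0.00791). In transgenic mice spleen was lower than peripheral node (-0.80 ± 0.18, adjusted p = 0.00725), while spleen minus mesenteric node was 0.22 ± 0.18 (adjusted p = 0.395). The wild type spleen minus peripheral node call was lost without wild type mouse 1, 2 or 4 (adjusted p 0.0643, 0.0615 and 0.0738) and without normalization (-0.40, adjusted p = 0.382). The transgenic one was lost without mouse 1 (adjusted p = 0.0602) and without the muscle and pancreas arrays (-0.77, adjusted p = 0.0518). The difference averaged -1.06 in mice numbered 1 or 2 and -0.35 in mice numbered 3 or 4, and the part of RNA quality was not tested.

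Xcr1, the chemokine receptor of cDC1, was the second gene that separated the nodes. It had log2 levels of 6.97, 7.30, 6.96 and 7.03 in wild type mesenteric nodes, against 5.97, 5.91, 6.17 and 5.34 in the peripheral nodes. The groups did not overlap, and the log2 difference was 1.21 ± 0.23 (2.32-fold, adjusted p = 0.0164). Leaving out any 1 of the wild type mice ended the call, with adjusted p between 0.0519 and 0.135, although the difference stayed between 1.08 and 1.36. The call was also lost without normalization (adjusted p = 0.0802) and without the muscle and pancreas arrays (adjusted p = 0.176). In transgenic mice the mesenteric nodes had 5.34, 6.67, 6.91 and 6.82, against 6.96, 6.55, 6.66 and 6.14 in the peripheral nodes, and the groups overlapped. Their difference was -0.14 ± 0.29 (adjusted p = 0.957). The lowest of these mesenteric nodes, of mouse 1, was also an array with pancreas transcripts and an Actb ratio of 3.10, and without that mouse the difference was 0.35 (adjusted p = 0.772). In wild type mice spleen was lower than mesenteric node (-0.68 ± 0.23, adjusted p = 0.0349), a call lost without mouse 1 or 2 (adjusted p 0.13 and 0.214) and without normalization (-0.29, adjusted p = 0.462). It was also lost with a pseudocount of 1, without a filter and without the muscle and pancreas arrays (adjusted p 0.0572, 0.0657 and 0.142). Xcl1, the chemokine that Xcr1 binds, was lower in spleen than in peripheral node (-0.65 ± 0.13, adjusted p = 0.00233) and in mesenteric node (-0.53 ± 0.13, adjusted p = 0.00865) of wild type mice, and its mesenteric minus peripheral difference was -0.12 ± 0.13 (adjusted p = 0.710).

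Flt3, the growth factor receptor, had log2 levels of 7.85, 8.04, 7.97 and 7.51 in wild type spleens, against 8.32, 7.94, 8.42 and 8.55 in mesenteric nodes and 8.45, 8.27, 8.30 and 8.25 in peripheral nodes. Spleen was lower than peripheral node in 8 of 8 mice. The wild type difference of -0.47 ± 0.26 did not pass (adjusted p = 0.179). In transgenic mice, Flt3 was lower in spleen than in mesenteric node (-0.64 ± 0.21, adjusted p = 0.0405), a call lost without mouse 1, 3 or 4 (adjusted p 0.067, 0.104 and 0.145). It was also lost with a pseudocount of 1, without normalization, without a filter, without the mouse block and without the muscle and pancreas arrays (adjusted p 0.122, 0.183, 0.0703, 0.0744 and 0.0602). The gene for its ligand, Flt3l, had no probe set under that symbol and was not analysed here.

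Among the transcription factors, Zbtb46 was higher in spleen. It had log2 levels of 8.71, 8.29, 8.12 and 7.86 in wild type spleens, against 7.72, 7.63, 7.41 and 7.26 in peripheral nodes and 7.82, 7.44, 7.48 and 7.56 in mesenteric nodes. All spleens exceeded all nodes. The log2 differences were 0.74 ± 0.16 (1.67-fold, adjusted p = 0.00322) and 0.67 ± 0.16 (1.59-fold, adjusted p = 0.00663), and spleen was higher in 8 of 8 mice against each node. In transgenic mice they were 0.71 ± 0.13 (adjusted p = 0.00202) and 0.65 ± 0.13 (adjusted p = 0.00341). Zbtb46 has 4 probe sets, and the others did not all give this result. The second brightest, 1429168_at, had wild type differences of 0.26 ± 0.20 and 0.07 ± 0.20 (adjusted p = 0.314 and 0.821), and the third, 1440489_at, had 0.59 ± 0.22 and 0.40 ± 0.22 (adjusted p = 0.0479 and 0.173). In transgenic mice neither of these other probe sets passed, so the transgenic calls and those against mesenteric node rest on the brightest probe set. Its call against peripheral node in transgenic mice was lost without normalization (0.48, adjusted p = 0.0813). Its calls against mesenteric node were lost without wild type mouse 2 (0.61, adjusted p = 0.0508) and, in transgenic mice, without the muscle and pancreas arrays (0.68, adjusted p = 0.055).

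Batf3 and Irf8 are the factors that cDC1 depend on. Batf3 had log2 levels of 7.63, 7.58, 7.53 and 7.41 in wild type spleens, against 8.31, 8.48, 8.36 and 8.14 in mesenteric nodes, without overlap, a difference of -0.78 ± 0.18 (1.72-fold lower, adjusted p = 0.00555). It was lower in spleen than in mesenteric node in 8 of 8 mice and higher in mesenteric than in peripheral node in 8 of 8 mice, although the wild type difference between the nodes, 0.39 ± 0.18, did not pass (adjusted p = 0.316). By mouse these differences ran from -0.90 to -0.09 and from 0.01 to 0.83. In transgenic mice spleen against mesenteric node did not pass. With each transgenic mouse left out in turn that difference was -0.57 to -0.35 (limma, adjusted p 0.217 to 0.492). Without normalization, the difference between wild type spleen and mesenteric node was -0.39 and did not pass (adjusted p = 0.294). Irf8 had log2 levels of 11.37, 11.36, 11.49 and 11.20 in wild type spleens, against 11.57, 11.69, 11.35 and 11.57 in peripheral nodes and 11.67, 11.48, 11.58 and 11.64 in mesenteric nodes. Its spleen minus node differences of -0.19 ± 0.11 and -0.23 ± 0.11 did not pass (adjusted p = 0.188 and 0.111). The second Irf8 probe set gave 0.26 ± 0.14 and -0.12 ± 0.14 in wild type mice and 0.41 ± 0.24 and 0.47 ± 0.24 in transgenic mice, and did not pass either (adjusted p = 0.168, 0.541, 0.249 and 0.172).

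Transgenic mice gave 4 of 8 genes in spleen against peripheral node (background 24.6%) and 4 of 8 in spleen against mesenteric node (background 27.3%). These backgrounds count higher and lower probe sets together. Itgax, Zbtb46 and Siglech passed in both comparisons and in both genotypes.

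In wild type mice spleen also differed from the nodes in neutrophil and T cell markers, while macrophage and B cell marker sums overlapped. The 10 measured T cell markers summed to 5711 to 6390 in wild type spleens, against 17548 to 18167 in peripheral and 9574 to 15047 in mesenteric nodes. The 8 measured neutrophil markers summed to an intensity of 4619 to 10877 in wild type spleens, against 883 to 1220 in peripheral and 425 to 1179 in mesenteric nodes. The 18 macrophage and monocyte markers summed to 28763 to 35943 in wild type spleens, against 25570 to 32475 in peripheral nodes and 34676 to 37506 in mesenteric nodes, and the 11 measured B cell markers to 22643 to 25861 in wild type spleens, against 21321 to 26177 in peripheral and 21184 to 24689 in mesenteric nodes. Within the macrophage list, 6 of 18 genes were higher and 5 lower in wild type spleen than in peripheral node (17.9% and 20.9% of all probe sets tested). Against mesenteric node 6 were higher and 6 lower (16.8% and 18.2%). Spic was higher in spleen than in peripheral node by 2.07 ± 0.12 (log2) in wild type mice. The 8 measured NK cell markers summed to 2036 to 2746 in wild type spleens, against 2258 to 2756 in peripheral and 1309 to 1711 in mesenteric nodes. The part of these cells in the spleen differences was not tested.

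**Figure D2:**
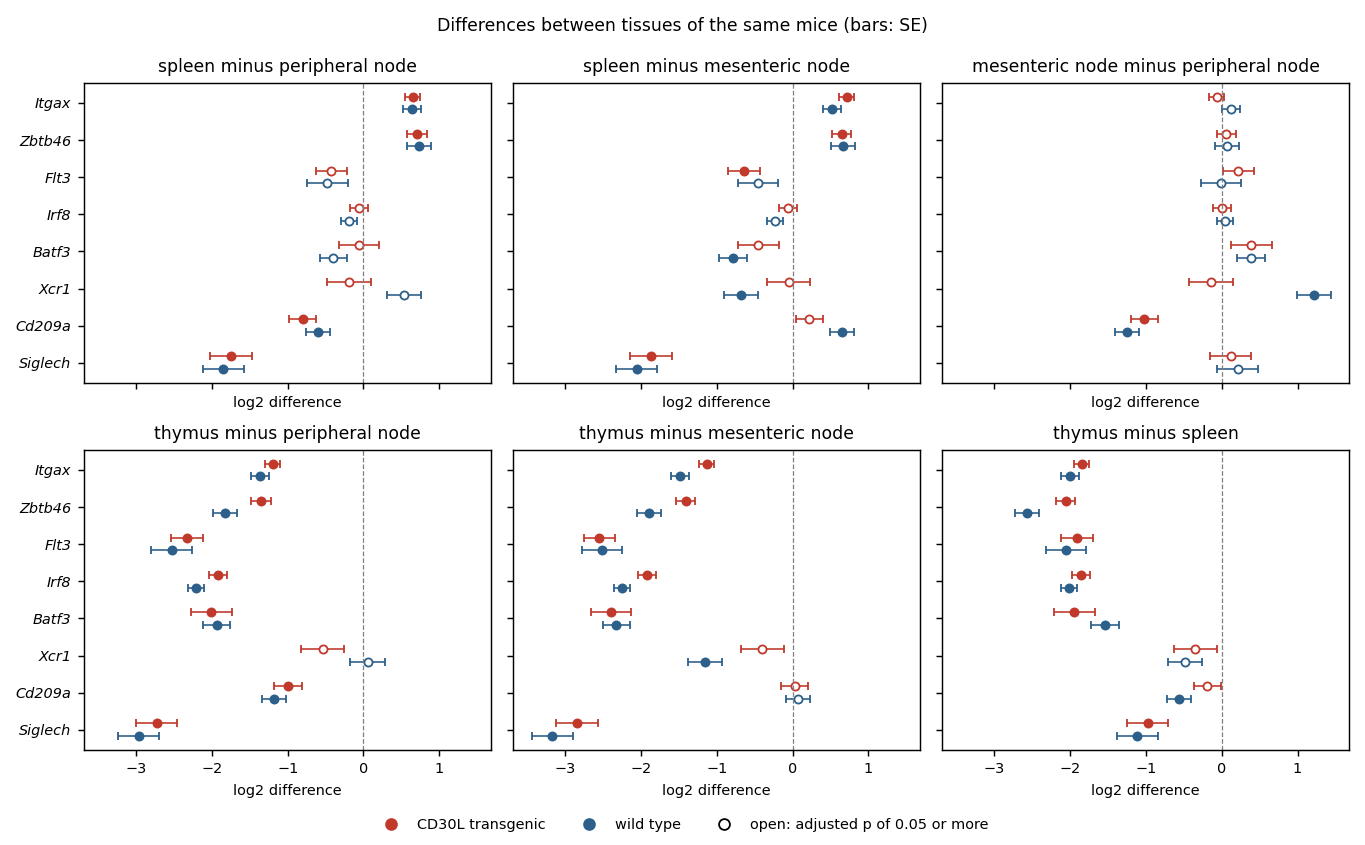
Log2 difference between tissues of the same mice for each gene, with the SE as a bar, in transgenic (red, above) and wild type (blue, below) mice, filled where the adjusted p was under 0.05. In spleen minus each node Itgax and Zbtb46 lie to the right of 0 and Siglech to the left in both genotypes, and in the thymus panels nearly all points lie left of 0.

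Thymus had the lowest levels of most of the genes. In wild type mice 7 of 8 were lower in thymus than in peripheral node (background 28.6% lower and 28.7% higher), 7 of 8 lower than in mesenteric node (26.4% lower and 28.8% higher) and 7 of 8 lower than in spleen (23.6% lower and 26.5% higher), and none was higher. The median log2 difference over the 8 genes was -1.88, -2.08 and -1.77 in these comparisons, against medians of -0.01, 0.03 and 0.05 over all probe sets tested. In transgenic mice 7, 6 and 6 of 8 were called in the same comparisons, all lower (backgrounds 48.6%, 51.3% and 47.9%, higher and lower together).

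Irf8 had log2 levels of 9.24, 9.30, 9.36 and 9.48 in wild type thymus, against 11.37, 11.36, 11.49 and 11.20 in the spleens of those mice. The groups lay far apart, and the difference was -2.02 ± 0.11 (4.05-fold lower, adjusted p = 2.01e-08). Its second probe set, 1448452_at, gave -2.34 ± 0.14 (adjusted p = 6.46e-08). Zbtb46, at 5.56, 5.63, 5.52 and 5.98 in wild type thymus, differed from spleen by -2.57 ± 0.16 (5.93-fold lower, adjusted p = 6.92e-08). Its second brightest probe set was at or below 0 intensity on all 4 transgenic and 2 of 4 wild type thymus arrays. Itgax, at 7.62, 7.49, 7.54 and 7.80 in wild type thymus, differed from spleen by -2.01 ± 0.12 (4.02-fold lower, adjusted p = 5.04e-08), and Batf3 and Flt3 by -1.54 ± 0.18 (adjusted p = 1.82e-05) and -2.06 ± 0.26 (adjusted p = 4.10e-05).

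Siglech had log2 levels of 6.32, 6.07, 5.20 and 5.11 in wild type thymus, which were -2.96 ± 0.27 from peripheral node (7.80-fold lower, adjusted p = 1.83e-06) and -3.17 ± 0.27 from mesenteric node (9.02-fold lower, adjusted p = 1.08e-06). Thymus minus spleen was -1.11 ± 0.27 (adjusted p = 0.00443), a call lost without wild type mouse 3 or 4 (adjusted p 0.0512 and 0.0516). Over both genotypes that difference averaged -0.39 in the 4 mice numbered 1 or 2 and -1.70 in the 4 numbered 3 or 4. The Actb ratio in thymus was 1.68 to 2.25 in mice numbered 1 or 2 and 1.34 to 1.43 in those numbered 3 or 4, and its part was not tested. Cd209a in wild type thymus, at 6.27, 6.26, 6.26 and 6.45, did not pass against mesenteric node (0.08 ± 0.16, adjusted p = 0.703). Against spleen it was lower (-0.57 ± 0.16, adjusted p = 0.00985), a call lost without mouse 1 (adjusted p = 0.0525). Xcr1, at 5.67, 5.63, 6.10 and 6.22 in wild type thymus, was lower than in mesenteric node (-1.16 ± 0.23, adjusted p = 0.000895). Against peripheral node it gave 0.05 ± 0.23 (adjusted p = 0.856) and against spleen -0.48 ± 0.23 (adjusted p = 0.0966).

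The thymus arrays carried other cells in other amounts. The B cell markers summed to 828 to 1080 in wild type thymus, against 22643 to 25861 in wild type spleen, and the macrophage and monocyte markers to 9545 to 10979, against 28763 to 35943. The T cell markers (10 measured) summed to 34244 to 35325 in wild type thymus, against 5711 to 6390 in spleen. Irf8 is also made by B cells, and Itgax by some macrophages. The part of these cell types in the thymus differences was not tested.

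The study's own question was what CD30 ligand on T cells changes in these tissues. None of the 8 genes passed an adjusted p of 0.05 (limma, 4 transgenic against 4 wild type mice) in peripheral node (background 0.037%), mesenteric node (background 0%), spleen (background 0.0111%) or thymus (background 0.0037%). At an unadjusted p under 0.05 there were 1, 1, 0 and 3 of 8 genes in these tissues, against 8.36%, 4.71%, 8.56% and 7.26% of all probe sets tested. The transgenic and wild type arrays did not overlap for 0 of 8 genes in peripheral node (background 5.35%), 2 of 8 in mesenteric node (3.94%), 0 of 8 in spleen (4.88%) and 0 of 8 in thymus (4.61%). The median log2 difference over the 8 genes was -0.03, -0.09, 0.01 and 0.19 in these tissues, against -0.01, 0.01, 0.01 and -0.00 over all probe sets tested.

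Xcr1 had the largest estimates. In peripheral node its log2 levels were 6.96, 6.55, 6.66 and 6.14 in transgenic mice, against 5.97, 5.91, 6.17 and 5.34 in wild type mice, and the lowest transgenic array lay within the wild type range. The difference was 0.75 ± 0.22 (95% interval 0.25 to 1.26, unadjusted p = 0.00845, adjusted p = 0.417). In mesenteric node its levels were 5.34, 6.67, 6.91 and 6.82 in transgenic mice, against 6.97, 7.30, 6.96 and 7.03 in wild type mice, with no overlap. That difference was -0.62 ± 0.32 (95% interval -1.36 to 0.11, adjusted p = 0.972). Whether the transgenic effect differed among the 4 tissues was tested with limma's moderated F test over all 32 arrays, and 0 of 8 genes passed (background 0.0851%). Xcr1 had the smallest p of the 8 in limma's F test, at F = 4.28 (adjusted p = 0.412), and Zbtb46 came next at F = 2.96 (adjusted p = 0.571).

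In thymus, Irf8 had log2 levels of 9.71, 9.43, 9.64 and 9.66 in transgenic mice, against 9.24, 9.30, 9.36 and 9.48 in wild type mice, which overlapped at 1 array of each. Its difference was 0.26 ± 0.10 (95% interval 0.04 to 0.48, adjusted p = 0.663), and its second probe set gave 0.18 ± 0.24 (adjusted p = 0.882). Itgax had 7.90, 7.77, 7.84 and 8.03 in transgenic thymus, against 7.62, 7.49, 7.54 and 7.80 in wild type thymus, a difference of 0.27 ± 0.10 (95% interval 0.04 to 0.50, adjusted p = 0.663). Zbtb46 had 6.17, 5.97, 6.03 and 6.07 in transgenic thymus, against 5.56, 5.63, 5.52 and 5.98 in wild type thymus, a difference of 0.37 ± 0.12 (95% interval 0.11 to 0.64, adjusted p = 0.635). Its second brightest probe set, 1429168_at, went the other way, with mean log2 levels of 4 in transgenic and 4.42 in wild type thymus. All 4 transgenic arrays were at or below 0 intensity there. The same means were 5.28 and 4.91 for 1440489_at and 5.13 and 4.46 for 1453856_at. None of these 3 genes passed after adjustment. On the same arrays the B cell markers summed to 1222 to 2142 in transgenic thymus, against 828 to 1080 in wild type thymus, and the macrophage and monocyte markers to 10056 to 11813, against 9545 to 10979. Their part in the estimates was not tested.

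In mesenteric node, Batf3 had log2 levels of 7.93, 7.82, 8.20 and 8.08 in transgenic mice, against 8.31, 8.48, 8.36 and 8.14 in wild type mice, a difference of -0.32 ± 0.12 (95% interval -0.58 to -0.05, adjusted p = 0.972). Siglech had 8.70, 8.65, 8.72 and 8.54 in transgenic mesenteric nodes, against 8.81, 8.91, 8.98 and 8.73 in wild type ones, and did not overlap. Its difference was -0.20 ± 0.09 (95% interval -0.41 to 0.01, adjusted p = 0.972). In spleen, the estimates of the 8 genes ran from -0.24 ± 0.14 for Cd209a (95% interval -0.56 to 0.08, adjusted p = 0.671) to 0.12 ± 0.13 for Irf8 (95% interval -0.17 to 0.40, adjusted p = 0.839). The second Irf8 probe set gave 0.33 ± 0.13 there (adjusted p = 0.565, unadjusted p under 0.05).

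The intervals differed in width between genes. For Itgax and Irf8 in the nodes they stayed within -0.30 and 0.33 on the log2 scale, whereas for Flt3 and Siglech in thymus they reached 1.21 and 0.99. In transgenic thymus 1 array was far from the rest for each of these genes, and Siglech in wild type thymus was higher in mice 1 and 2 than in mice 3 and 4.

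**Figure D3:**
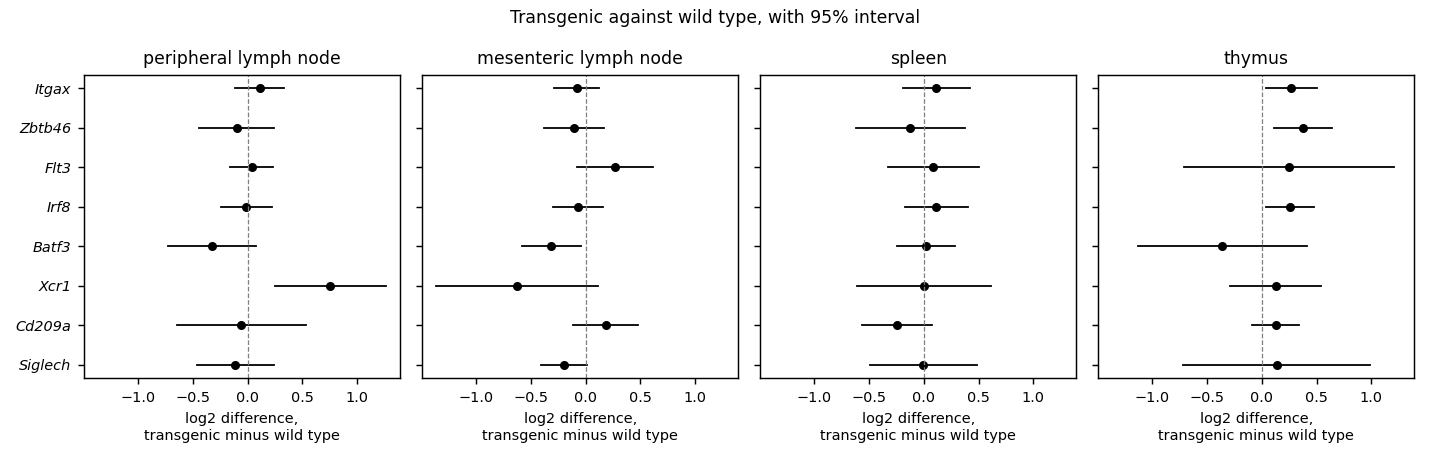
Log2 difference of transgenic minus wild type mice for each gene in each tissue, with the 95% interval as a bar (4 against 4 mice). Most intervals include 0, those of Xcr1 in peripheral node, Batf3 in mesenteric node and Itgax, Zbtb46 and Irf8 in thymus do not, and no adjusted p was under 0.05.

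Other genes of the dendritic cell lineage were counted in lists by subset. In transgenic against wild type mice 0 genes of any of these lists passed in any tissue (limma). Gcsam, of the cDC1 list and also a germinal centre B cell gene, had the smallest p of that list in both nodes and in spleen, at 0.90 ± 0.20 (adjusted p = 0.261) in peripheral node, 0.43 ± 0.10 (adjusted p = 0.614) in mesenteric node and 1.01 ± 0.25 (adjusted p = 0.528) in spleen. In thymus the smallest p of the cDC1 list was that of Wdfy4, a cross-presentation factor, at 0.45 ± 0.12 (adjusted p = 0.589), and of both the cDC2 and the migratory list that of Relb, an NF-kB subunit that 3 of the lists hold, at 0.47 ± 0.12 (adjusted p = 0.573).

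Of 21 genes of mature and migratory dendritic cells, 17 were lower and 0 higher in wild type spleen than in peripheral node (20.9% and 17.9% of all probe sets tested), with a median of -0.77 against -0.06. Ccl22, a chemokine of mature dendritic cells, differed by -4.27 ± 0.17 (adjusted p = 9.47e-09) and Anxa3 by -1.58 ± 0.10 (adjusted p = 4.39e-07). Nudt17 differed by -3.19 ± 0.24 (adjusted p = 1.54e-06), with 2 of the 4 wild type spleens at or below 0 intensity. Against mesenteric node 14 of 21 were lower and 0 higher (18.2% and 16.8% of all probe sets tested), with Fscn1, an actin bundler of mature dendritic cells, at -2.92 ± 0.24 (adjusted p = 3.60e-06). Between thymus and spleen, 2 of the 21 were higher in wild type thymus than in spleen and 13 lower (26.5% and 23.6% of all probe sets tested).

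Of the 17 genes of the cDC2 list, 12 were lower and 1 higher in wild type spleen than in peripheral node (20.9% and 17.9% of all probe sets tested), with a median of -1.09 against -0.06. The lectins Cd209b (-4.55 ± 0.23, adjusted p = 7.24e-08) and Clec10a (-4.15 ± 0.23, adjusted p = 1.25e-07) had the smallest adjusted p along with Cd209e (-4.35 ± 0.20, adjusted p = 2.85e-08), of which 2 wild type spleens were at or below 0 intensity. Cd209b is known from marginal zone and node macrophages, so its list is not one of dendritic cells alone. Between the nodes 4 of 17 were lower in mesenteric than in peripheral node and 0 higher (0.718% and 1.46% of all probe sets tested). Cd209e differed by -1.66 ± 0.20 (adjusted p = 0.00107), Clec10a by -1.75 ± 0.23 (adjusted p = 0.00187) and Cd209d by -2.80 ± 0.50 (adjusted p = 0.0121).

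Of the 15 genes of the cDC1 list, 4 were higher and 5 lower in wild type spleen than in peripheral node (17.9% and 20.9% of all probe sets tested), with a median of -0.17 against -0.06. Cd24a (1.33 ± 0.11, adjusted p = 4.26e-06) and Cadm1, an adhesion molecule of cDC1 (1.24 ± 0.12, adjusted p = 1.20e-05), were higher, and Itgae, the CD103 integrin of migratory cDC1 that T cells also carry (-1.78 ± 0.25, adjusted p = 0.000157), was lower. Against mesenteric node 3 of the 15 were higher and 6 lower in wild type spleen (16.8% and 18.2% of all probe sets tested). The median there was -0.30 against -0.03. Between the nodes Gcsam was higher in mesenteric than in peripheral node (1.29 ± 0.16, adjusted p = 0.00136) and Cd8a lower (-0.62 ± 0.11, adjusted p = 0.0157). Beside the spleen differences of these lists stood the T cell markers, of which 10 of 10 were lower in wild type spleen than in peripheral node, with a median of -1.61. Their summed intensity was 5711 to 6390 in wild type spleen, against 17548 to 18167 in peripheral node. Between the nodes 1 of the 10 T cell markers was lower in mesenteric node and 0 higher, with a median of -0.39 against -0.02. Of the neutrophil markers, 7 of 7 above the filter were higher in wild type spleen than in peripheral node (17.9% of all probe sets tested), with a median of 2.85. The part of T cells, neutrophils and other cells in the spleen and node differences of these lists was not tested.

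The pDC list holds plasmacytoid genes other than Siglech. Of 16 tested genes 5 were lower and 0 higher in wild type spleen than in peripheral node (20.9% and 17.9% of all probe sets tested), with a median of -0.18 against -0.06. Bst2, a surface antigen of plasmacytoid dendritic cells, differed by -1.07 ± 0.15 (adjusted p = 0.000149), Cox6a2 by -1.03 ± 0.20 (adjusted p = 0.00152) and Ccr9 by -0.67 ± 0.13 (adjusted p = 0.00191). In wild type spleen against mesenteric node 4 of 16 were lower and 3 higher (18.2% and 16.8% of all probe sets tested). The median there was 0.04 against -0.03, so the list as a whole was not lower. In thymus against spleen 4 of 16 were higher and 8 lower, against 26.5% and 23.6% of all probe sets tested, with a median of -0.46 against 0.05. The factor Spib, shared with B cells, was lower (-3.88 ± 0.14, adjusted p = 1.08e-09), and Ccr9, which thymocytes also express, was higher (4.11 ± 0.13, adjusted p = 5.19e-10).

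Of the ligands and growth factor genes, 3 of 14 were higher and 7 lower in wild type spleen than in peripheral node (17.9% and 20.9% of all probe sets tested), with a median of -0.33 against -0.06. Csf2rb2, a receptor chain of the GM-CSF family, differed by -2.23 ± 0.17 (adjusted p = 1.83e-06) and Tnfsf11, which encodes RANKL, by -2.02 ± 0.16 (adjusted p = 2.40e-06). Of 19 other transcription factors of the lineage 1 was higher, Bcl11a (0.68 ± 0.10, adjusted p = 0.000298), and 7 lower (17.9% and 20.9% of all probe sets tested), with Relb at -1.09 ± 0.11 (adjusted p = 1.01e-05) and Nfil3, which acts upstream of cDC1 development, at -1.48 ± 0.21 (adjusted p = 0.000193). Between thymus and spleen 5 of the 19 were higher and 10 lower in thymus (26.5% and 23.6% of all probe sets tested), with Bcl11a at -3.85 ± 0.10 (adjusted p = 1.95e-10) and Gfi1 at 3.76 ± 0.13 (adjusted p = 7.29e-10). Of the Langerhans cell genes, 3 lay above the filter. In wild type spleen against peripheral node 2 were lower and 0 higher (20.9% and 17.9% of all probe sets tested), with Cldn1 at -3.07 ± 0.13 (adjusted p = 1.98e-08). In mesenteric against peripheral node 1 was lower and 0 higher (0.718% and 1.46%), which was Cldn1 (-1.59 ± 0.13, adjusted p = 7.32e-05). In thymus against spleen 2 were higher and 0 lower (26.5% and 23.6%), with a median of 1.48 against 0.05.

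**Figure D4:**
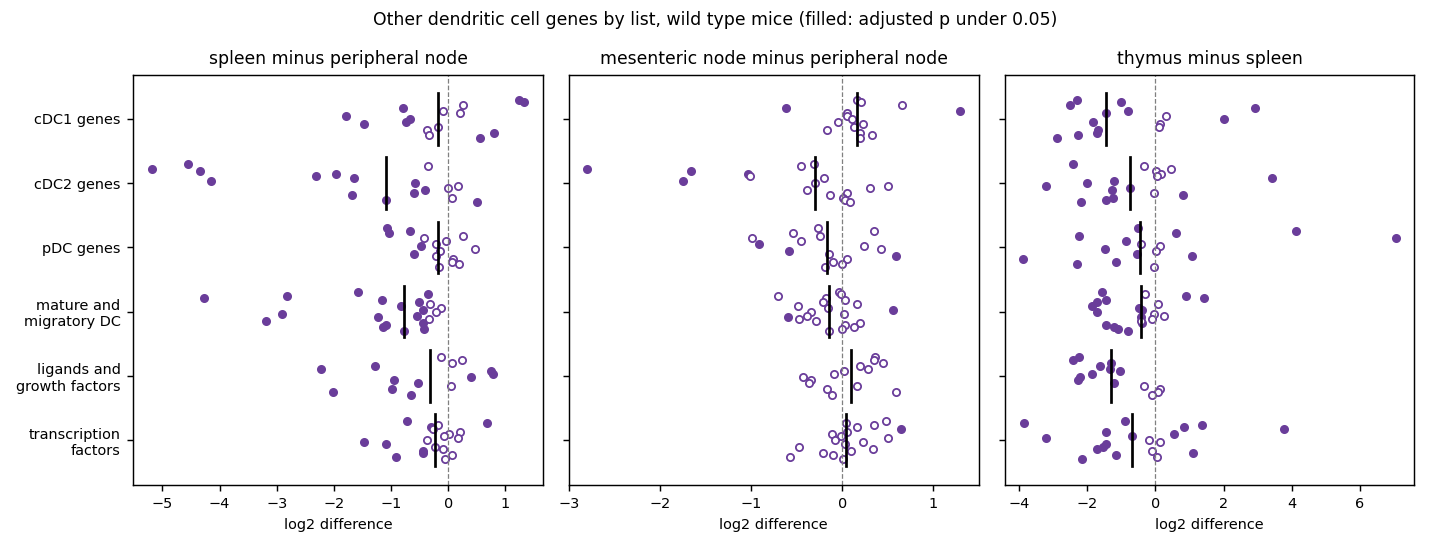
Log2 difference of the genes of 6 other dendritic cell lists (without the Langerhans list) in wild type mice, filled where the adjusted p was under 0.05, with a vertical bar at the list's median. In spleen minus peripheral node no gene of the mature and migratory list lies above 0 and several cDC2 genes lie below -4, and between the nodes the medians of the 6 lists drawn lie between -0.30 and 0.16.

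Genes with a like profile were sought by the root mean square difference of centred log2 levels over the 8 group means of 32 arrays, among 22643 probe sets, for the 6 genes whose group means had an SD of at least 0.5. The nearest were Zeb2 (0.05), Naip2 and Irf5 to Irf8, Naip5 (0.09), Gab2 and Septin4 to Itgax, and Prkar1b (0.09), Fzd1 and Sema6d to Zbtb46. Flt3 was nearest to Sucnr1 (0.09), Igfbp4 and Scpep1, Batf3 to Rcn3 (0.13), Ehd1 and Daglb, and Siglech to Gstm1 (0.14), Jam3 and Ltbp2. Xcr1 and Cd209a varied too little over the groups for this measure.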

How the data were processed

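Total RNA of 32 tissue samples (spin column kit) was biotin-labelled from 5 µg and measured on Affymetrix arrays, per the labels' protocols. The deposited values are linear intensity per probe set, and 14.9% to 18.4% of each array's values are negative. The summary algorithm and scaling were not given in the sources used here.

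Negative intensities were raised to 0, and log2(intensity + 16) was quantile normalized. Of 45037 probe sets (64 controls left out), 34945 had 1 symbol, 932 several and 9160 none. The dimmest 40% by mean were dropped, which left 27022 per fit. In limma 3.58.1 (R 4.3.3, lmFit and eBayes), p-values were adjusted by Benjamini-Hochberg over all kept probe sets, with a threshold of 0.05. Genotypes were compared per tissue (8 arrays), tissues per genotype with mouse as a block (16 arrays), and the transgenic effect among tissues over 32 arrays. Code was tested on simulated data. Precision is limited by 4 mice per genotype.

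Tissues of 1 animal are paired by the labels. Transgenic and wild type mice that share a number deviated together in part (correlations -0.435 to 0.33 over the tissues, 0.0229 to 0.32 in spleen). No tissue had all 4 correlations above 0.1. The labels do not say that mouse numbers pair the genotypes, so these mice were not paired in the main fits. Arrays of a group correlated at 0.943 to 0.986.

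The genes and lists were chosen with earlier results of these data known, and 203 of 222 list entries matched. Named are the members, Tnfsf8, Tnfrsf8, Xcl1, Flt3l and, per list and comparison, up to 3 genes with the smallest adjusted p. Pseudocount, normalization, filter, block, probe set and the arrays included were varied.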

Additional observations from a re-analysis of the deposited data

Results flagged for a closer look

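In 9 of the 64 groups of 4 arrays formed by the 8 genes, 1 array lay apart from the other 3, with a gap of over 0.829 of the group's range to its nearest neighbour (Dixon's criterion). Chance alone gives about 1 such group in 20. Log2 levels are given.

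Flt3 accounted for 3 of them. The transgenic spleen of mouse 2 was at 7.44, with its nearest neighbour at 8.03. The transgenic thymus of mouse 2 was at 5.03 (nearest 6.31), and the wild type thymus of mouse 4 was at 4.63 (nearest 6.08).

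Cd209a also accounted for 3, each of them a high array. The transgenic thymus of mouse 1 was at 6.61 (nearest 6.40), the wild type thymus of mouse 4 at 6.45 (nearest 6.27), and the wild type spleen of mouse 3 at 7.10 (nearest 6.83).

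Xcr1 was low at 5.34 in the transgenic mesenteric node of mouse 1 (nearest 6.67), an array with pancreas transcripts. Siglech was low at 4.83 in the transgenic thymus of mouse 3 (nearest 6.08). Batf3 was high at 7.83 in the transgenic spleen of mouse 1 (nearest 7.47), whose Actb ratio was 2.83.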

How the results depend on the processing

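The count of called genes stayed at 0 for transgenic against wild type mice in all 4 tissues, and for the transgenic effect among tissues, under every alternative run, the replicate block by mouse number included. Between tissues, no call changed sign. For wild type mesenteric against peripheral node the count was 2 and became 1 without normalization and without the muscle and pancreas arrays. It also became 1 with the filter at the 60th percentile, under which Xcr1, at percentile 54.9, was not tested. In transgenic mice it was 1 between the nodes and became 0 without a filter and without those arrays. For transgenic spleen the count of 4 became 2 against peripheral node without normalization, and 2 against mesenteric node without those arrays. For wild type spleen, 6 against mesenteric node became 4 without normalization, and 4 against peripheral node became 6 with a pseudocount of 64. The muscle and pancreas arrays left out were 3 of each node, chosen after the data were seen. The thymus array of wild type mouse 2, which also had muscle transcripts, was kept. Without the replicate block for mouse, only Flt3 in transgenic spleen against mesenteric node lost its call (adjusted p = 0.0744).

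With each mouse left out in turn, transgenic and wild type counts were 0 to 0 and 1 to 1 between the nodes, 3 to 4 and 3 to 4 for spleen against peripheral node, and 3 to 4 and 4 to 6 for spleen against mesenteric node. For thymus they were 7 to 7 and 7 to 7 against peripheral node, 6 to 7 and 7 to 7 against mesenteric node, and 6 to 6 and 6 to 7 against spleen. Over genes, tissue comparisons and alternatives, a call was kept 746 times and lost 44 times, and an uncalled result stayed uncalled 438 times and gained a call 8 times. The cause of these changes was not tested. The counts include the second brightest probe set, which differs from the main one only for the 2 genes with several probe sets. For the other genes that setting repeats the main fit and could not change. Xcr1 and Cd209a, with mean levels at percentiles 54.9 and 60.8 of all probe sets, lie nearest to the filter and were most often among the lost calls.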
